A study of Mus musculus with 10 samples.

Results

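The miRNAs described here are those by which the non-parenchymal cells of the liver are commonly recognised. They are miR-143 and miR-145 of smooth muscle and other contractile cells, miR-199a-3p, miR-199a-5p and miR-214 of stellate cells and fibroblasts, miR-21, and miR-126-3p and miR-126-5p of the endothelium. The 8 names were matched to the miRNA name of each probe on a bead array, leaving out star strands, and this gave 9 of the 655 probes. miR-199a-3p has a pair of probes, 1 of them annotated to both miR-199a-3p and miR-199b and the other, with a version suffix, to miR-199a-3p alone. The latter is called the second miR-199a-3p probe below.

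The arrays compared livers of 5 wild-type mice (WT) with livers of 5 LivPGC-1α mice, all of the FVB/N strain, aged 4 months and, by the study's account, fasted overnight. LivPGC-1α mice carry a human PGC-1α transgene made by pronuclear injection and driven by the promoter, exon 1 and part of exon 2 of Apolipoprotein E, so that PGC-1α, a coactivator of mitochondrial and fasting genes, is overexpressed in the liver. The sources used here do not give the number of founder lines. The question was whether miRNAs that mark vascular and mesenchymal cells differ when the coactivator is raised in the liver by this promoter.

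Hepatic stellate cells lie between hepatocytes and sinusoidal endothelium, store vitamin A and, when activated, become the main collagen-producing cells of the fibrotic liver. miR-199a and miR-214 are transcribed together from Dnm3os, the RNA opposite to Dnm3, and are known as mesenchymal miRNAs that rise in fibrosis. miR-143 and miR-145 are cut from a common primary transcript and maintain the contractile state of smooth muscle. miR-126 lies in an intron of Egfl7, an endothelial gene, and supports VEGF signalling and vessel integrity. miR-21 lies within the Vmp1 locus, is made by many cell types and rises in injury, fibrosis and cancer, so that it marks mesenchyme less specifically than the others. The array measures whole liver, in which fewer cells of a type and less RNA per cell cannot be told apart.

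The mature sequences are shown because the seed, bases 2 to 8, decides which mRNAs a miRNA can pair with. They come from RefSeq, with positions on GRCm38.p6, and the seed is in capitals. RefSeq sequences of 5 of the 8 members are printed.
miR-199a-5p: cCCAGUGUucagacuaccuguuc
miR-199a-3p: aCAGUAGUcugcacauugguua
miR-214: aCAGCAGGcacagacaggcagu
miR-21: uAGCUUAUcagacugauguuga
miR-126-3p: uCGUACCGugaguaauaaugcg

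The 5 seeds all differ from one another. miR-199a-3p has the same mature sequence as miR-199b-3p, so no probe for it can tell the 2 loci of miR-199a from that of miR-199b. miR-214 shares its seed with miR-761, and miR-21 with miR-21c. miR-761 was also measured, at a normalized signal between 6953 and 9077 on the 10 arrays, and its sequence departs from miR-214 just after the seed.
miR-761: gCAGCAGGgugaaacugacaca

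miR-199a-5p and miR-199a-3p are the arms of 1 hairpin and are encoded by both Mir199a-2 on chromosome 1 and Mir199a-1 on chromosome 9, within Dnm2. Mir199a-2 (chr1:162217814-162217923, plus strand) and Mir214 (chr1:162223368-162223477, plus strand) are separated by 5444 bases and both lie within Dnm3os. Their hairpins are shown, as RNA, because miR-199a and miR-214 come from neighbouring hairpins of 1 transcript and are compared with each other over the arrays. The mature strands of the members are in capitals.
Mir199a-2: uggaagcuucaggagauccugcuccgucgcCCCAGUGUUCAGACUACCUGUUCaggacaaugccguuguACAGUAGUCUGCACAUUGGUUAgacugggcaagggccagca
Mir214: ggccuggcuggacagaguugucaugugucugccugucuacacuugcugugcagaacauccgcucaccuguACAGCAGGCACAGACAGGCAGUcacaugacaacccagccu

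The other members lie elsewhere. Mir126a is on chromosome 2 within Egfl7, Mir21a is on chromosome 11 within Vmp1, and Mir145a and Mir143 are on chromosome 18 within Carmn, 1301 bases apart.

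Between 423 and 482 of the 655 probes were detected per array, at a detection p of at most 0.01 against the negative controls of the array. All 10 arrays lay on 1 chip, WT at positions 1 to 5 and LivPGC-1α at positions 6 to 10, so that position and genotype cannot be told apart. The labelled tissue was borne out by the hepatocyte miRNA miR-122, whose normalized signal was between 51887 and 54270. WT 1 stood apart in the striated muscle miRNAs, of which 5 of 6 were tested, with a mean log2 deviation of 2.78 from the 10-array mean against −0.47 to −0.12 on the other arrays (miR-133a was 33336 on WT 1 and between 1277 and 1877 elsewhere). The member changes are therefore also given without WT 1. The PGC-1α transcript was not analysed here, since the array carries miRNAs.

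All 9 probes were detected on all 10 arrays, and 5 of them were among the brightest of the array. Within each array, miR-126-5p ranked 1 to 3 of the 655 probes, miR-21 ranked 1 to 4, miR-126-3p 5 to 9, miR-143 13 to 36 and miR-145 39 to 45. The mesenchymal miR-199a and miR-214 ranked lower. miR-199a-3p ranked 65 to 80, miR-199a-5p 84 to 97, the second miR-199a-3p probe 98 to 123 and miR-214 140 to 165. A rank here describes the brightness of a probe, which depends on the probe as well as on the miRNA, and is not an order of abundance.

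In the comparison of genotypes, none of these miRNAs passed the test with quantile normalization. The intervals below hold on that scale only, and other scalings gave other intervals. By limma 0 of the 9 probes passed at an adjusted p under 0.05 (Benjamini-Hochberg over the 513 probes detected on at least 1 array), and 0 had an unadjusted p under 0.05. Over all tested probes, 0.390% passed after adjustment and 14.4% before it. The groups overlapped at all 9 probes, whereas they did not overlap at 4.87% of all tested probes. The log2 changes, LivPGC-1α minus WT, had a median of 0.014 over the members and 0.012 over all tested probes. Of the members 7 probes lay above 0 and 2 below, and of all tested probes 292 above and 221 below.

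miR-214, which lies with miR-199a on Dnm3os, had the change of greatest size among the 9 probes and the widest interval on the quantile scale. Under both percentile scalings and without normalization, miR-199a-5p had the greater change. miR-199a-3p had it with a linear term for chip position, at −0.16 ± 0.12 (SE), and without WT 1, WT 3 and WT 5, at −0.10 ± 0.08. Position and genotype cannot be told apart, so changes with the position term are imprecise. The normalized signal of miR-214, the quantile-normalized intensity on a linear scale, was 10478, 11318, 9525, 12518 and 9960 on WT 1 to WT 5 and 9847, 11932, 12518, 13080 and 11932 on LivPGC-1α 1 to 5. The group means were 10760 ± 1190 in WT and 11862 ± 1220 in LivPGC-1α (SD, n = 5). 4 of the 5 LivPGC-1α livers lay above 4 of the 5 WT livers, but WT 4 equalled LivPGC-1α 3 and LivPGC-1α 1 lay among the low WT livers. The log2 change was 0.14 ± 0.09 (SE), and the 95% confidence interval of the fold ran from 0.954 to 1.27 (limma, adjusted p = 0.527). Leaving out each array in turn moved the change between 0.10 and 0.21. It was 0.04 with the 75th percentile of the probes detected on all arrays. With a linear term for chip position it was −0.03 ± 0.19 (SE), so its sign was not determined. Without WT 1, WT 3 and WT 5 it was −0.01. These were the lowest WT livers for miR-214, so leaving them out lowered the change by construction and is no check on it. At 0.21, without LivPGC-1α 1, the unadjusted p was 0.0306 and the adjusted p 0.321.

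miR-199a-5p, the other Dnm3os strand with a change above 0.05, varied less. Its signal was 22746, 23074, 21020, 23311 and 21305 in WT and 23074, 22295, 23677, 24241 and 22295 in LivPGC-1α. WT 3 and WT 5 were low, while the other 3 WT livers lay within the range of LivPGC-1α. The change was 0.05 ± 0.04 (limma, adjusted p = 0.601), with a fold between 0.974 and 1.11.

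The probes for miR-199a-3p differed in the sign of the change, neither of which passed the test. The probe shared with miR-199b read 29458, 29983, 26237, 30659 and 28089 in WT and 25473, 26725, 29458, 30659 and 29458 in LivPGC-1α, a change of −0.03 ± 0.06 (limma, adjusted p = 0.930). The second probe read 19913, 18979, 17084, 18136 and 18277 in WT and 15855, 18478, 20421, 20808 and 18827 in LivPGC-1α, a change of 0.03 ± 0.07 (limma, adjusted p = 0.945). On both probes LivPGC-1α 1 was the lowest of the 10 livers, and WT 3 the lowest of the WT livers. The confidence intervals allowed folds between 0.891 and 1.08 and between 0.906 and 1.14.

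miR-143, of contractile cells, read 46760, 46966, 43125, 47388 and 43622 in WT and 42836, 45742, 44683, 45076 and 47058 in LivPGC-1α. The livers of each genotype spanned nearly the same range, and the means were 45572 ± 2030 and 45079 ± 1540 (SD, n = 5). The change was −0.02 ± 0.04 (limma, adjusted p = 0.945), with a fold between 0.931 and 1.05. Its partner miR-145 read 40826, 40359, 38980, 41061 and 39220 in WT and 40359, 40826, 40826, 40359 and 40826 in LivPGC-1α. The 5 LivPGC-1α livers took only 2 values, both found in WT, and the low values were those of WT 3 and WT 5. The change was 0.02 ± 0.02 (limma, adjusted p = 0.777), with a fold between 0.976 and 1.05.

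The endothelial miR-126 arms and miR-21, the brightest of the 9 probes, stayed within narrow ranges. miR-126-3p read 50665, 51887, 50665, 50665 and 48729 in WT and 50665, 50665, 50665, 51887 and 51119 in LivPGC-1α. Only WT 5 lay below the common value of 50665, and the change was 0.01 ± 0.02 (limma, adjusted p = 0.886). miR-126-5p took 54568 on all WT arrays except WT 2, at 55004, and 55004 on all LivPGC-1α arrays except LivPGC-1α 1, at 54270, with a change of 0.0053 ± 0.020 (limma, adjusted p = 0.964). miR-21 read 54270, 54270, 55004, 54270 and 53839 in WT and 54568, 54270, 54568, 54270 and 54270 in LivPGC-1α, so that WT held both the highest and the lowest liver. Its change was 0.0016 ± 0.020 (limma, adjusted p = 0.995). The folds allowed were 0.972 to 1.05 for miR-126-3p, 0.973 to 1.04 for miR-126-5p and 0.97 to 1.03 for miR-21.

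**Figure D1:**
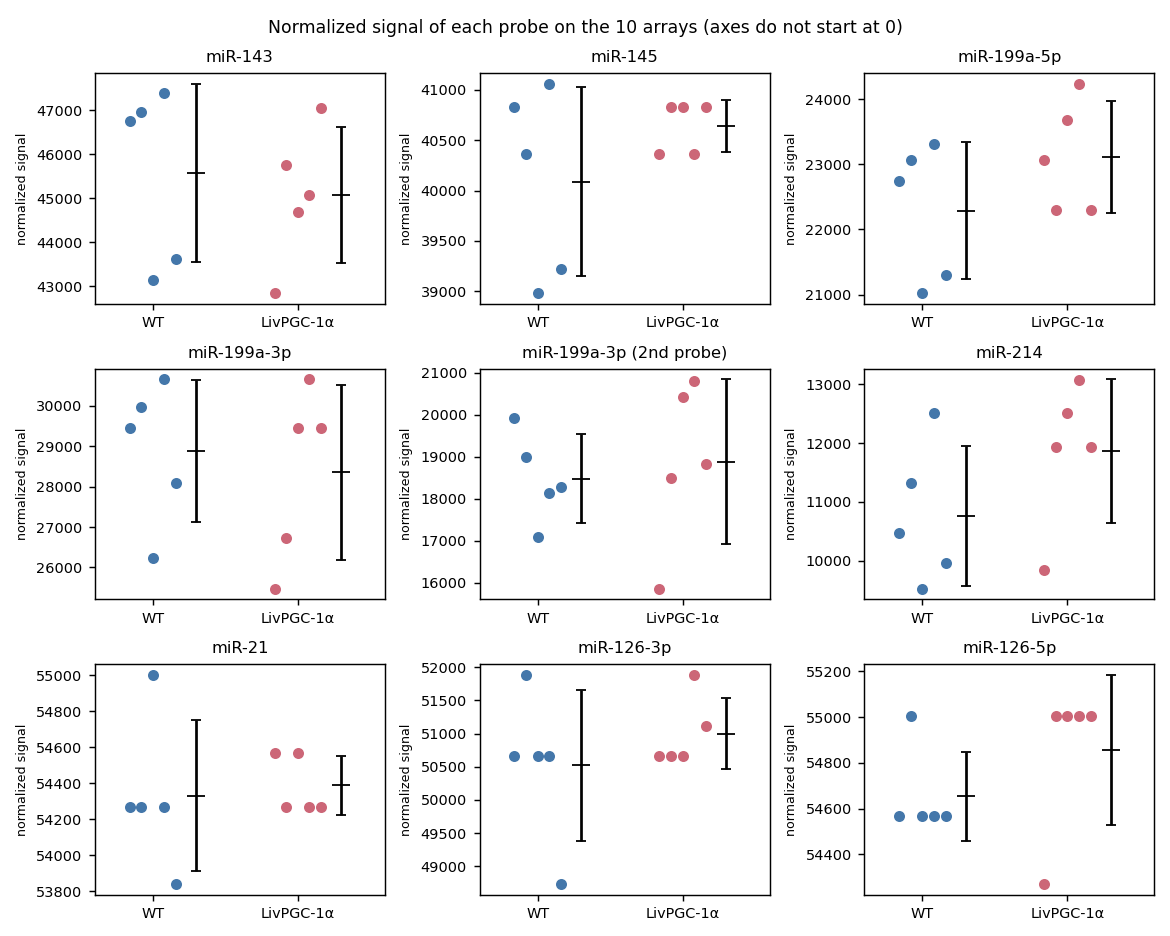
Normalized signal of each of the 9 probes in 5 WT and 5 LivPGC-1α livers. Points are arrays in the order of their numbers, the bars are mean ± SD (n = 5), and each axis covers only the range of its probe. The groups overlap in every panel, and LivPGC-1α 1 is the lowest liver on both miR-199a-3p probes.

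These narrow intervals rest partly on the scale. The fold of miR-126-3p, between 0.972 and 1.05 here, lay between 0.949 and 1.17 without normalization. With the 75th percentile over all probes it lay between 1.04 and 1.21. They also rest on the variance model, since the SE of miR-126-5p was 0.0074 under robust eBayes with a trended variance, against 0.020 here. Quantile normalization gives all arrays the same set of values by rank, so a probe that keeps its rank keeps its value exactly, and probes at the top of the array can move little. The 39 tested probes with a mean signal over 40000, 5 of them members, had a median residual SD of 0.018 on the log2 scale, against 0.11 for the other 474. Before normalization the signal of the highest over that of the lowest array was 1.165-fold for miR-21, 1.182-fold for miR-126-5p and 1.202-fold for miR-126-3p, and after it 1.022-fold, 1.014-fold and 1.065-fold. For miR-214 it was 1.388-fold before and 1.373-fold after. The ratios before normalization also hold differences in brightness between whole arrays. The highest signal of an array ran from 50062 on WT 1 to 57741 on LivPGC-1α 2. A difference in the brightest members that normalization compressed would not have been detectable here.

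The direction of the change depended on the scaling for 5 of the 9 probes, miR-143, miR-199a-3p, miR-126-3p, miR-126-5p and miR-21. With cyclic loess in place of quantile normalization, miR-126-3p, miR-126-5p and miR-21 lay at −0.02, −0.04 and −0.05, and miR-214 at 0.08. With each array divided by its 75th percentile over all probes, the median of all tested probes moved to 0.075, 80 probes were called, and 2 members were among them, miR-126-3p at 0.17 (limma, adjusted p = 0.0465) and miR-145 at 0.19 (limma, adjusted p = 0.0403). With the percentile taken over the 408 probes detected on all arrays, 0 members were called, as with cyclic loess and with no normalization. Without WT 1, 0 members were called. The changes were then 0.13 for miR-214, 0.06 for miR-199a-5p, −0.02 for miR-199a-3p and 0.05 for its second probe, −0.0057 for miR-143 and 0.03 for miR-145. For miR-126-3p, miR-126-5p and miR-21 they were 0.01, 0.0047 and 0.0012.

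**Figure D2:**
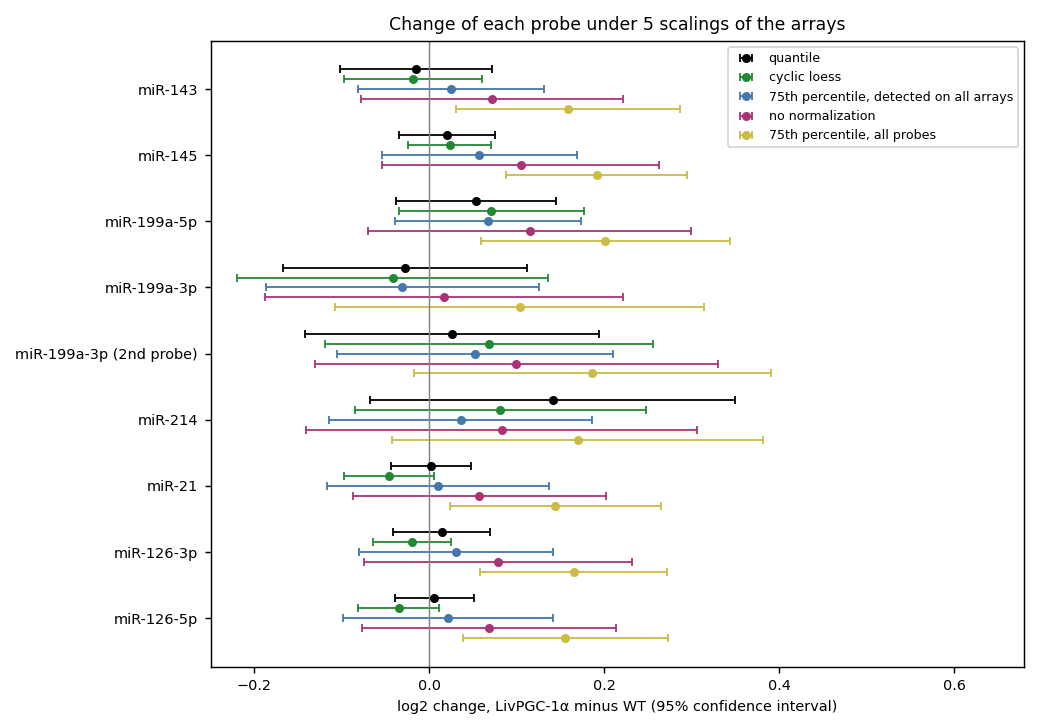
Log2 change of each probe, LivPGC-1α minus WT, with its 95% confidence interval from limma, under 5 scalings of the arrays. The quantile values (black) lie between −0.03 and 0.14 with all intervals across 0, and the percentile over all probes (yellow) shifts every probe upwards.

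The members were next compared with one another over the 10 arrays. The 9 probes give 36 pairs, and Pearson's r of the log2 signal was above 0 for 29 of them, with a median of 0.484. Over all 83028 pairs of always-detected probes the median was 0.068, with quartiles of −0.21 and 0.34. An r of at least 0.7 was reached by 9 of the 36 member pairs and by 3.74% of all pairs. None of the 36 passed the permutation test after adjustment over the 36 pairs, and 10 had an unadjusted p under 0.05. Arrays of the pairs share their chip, their scaling and the livers, and the probe pair of miR-199a-3p reads 1 sequence.

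The 4 probes of miR-199a and miR-214 were grouped because Mir199a-2 and Mir214 are neighbours. Their signal need not come from that locus, since miR-199a also comes from Mir199a-1 and miR-199a-3p has the sequence of miR-199b-3p. Their 6 pairs had r between 0.489 and 0.786 with a median of 0.696, and the other 30 pairs a median of 0.434. The probes of miR-199a-3p had r = 0.79 with each other (rho = 0.63, permutation p = 0.00624 and 0.0574, adjusted p = 0.103 and 0.212). miR-214 had r = 0.71 with miR-199a-3p (rho = 0.78, permutation p = 0.0257 and 0.0103, adjusted p = 0.103 and 0.180), r = 0.73 with miR-199a-5p (rho = 0.74, permutation p = 0.0183 and 0.0187, adjusted p = 0.103 and 0.180) and r = 0.68 with the second miR-199a-3p probe (rho = 0.66, permutation p = 0.0289 and 0.0440, adjusted p = 0.104 and 0.206).

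These correlations changed with the livers kept, and not all in 1 direction. Without the 2 arrays farthest from the median of the first probe, r was 0.40 for both miR-199a-3p probes (WT 3 and LivPGC-1α 1 left out), 0.40 for miR-199a-3p with miR-214 (the same arrays) and 0.42 for miR-199a-5p with miR-214 (WT 3 and WT 5 left out). For miR-199a-5p with miR-199a-3p it rose from 0.56 to 0.69 (WT 3 and LivPGC-1α 1 left out). With the second probe it rose from 0.49 to 0.73 (LivPGC-1α 1 and LivPGC-1α 4 left out). Without these latter arrays it was 0.47 for the second probe with miR-214. Leaving out the extremes of a probe narrows its range, which can itself lower r, and which probe came first was only listing order. On deviations from the mean of each genotype, the 6 pairs had r between 0.489 and 0.883, and 2 of them passed after adjustment.

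The r of miR-199a with miR-214 and of the miR-199a probes with each other was above 0 under every scaling tried. The 6 pairs had r between 0.667 and 0.831 with cyclic loess, where all pairs had a median of −0.0018 and 3 of the 6 passed the permutation test after adjustment. They had r between 0.531 and 0.76 when the 75th percentile was taken over the 408 always-detected probes, between 0.82 and 0.901 with the percentile over all probes and between 0.755 and 0.896 without normalization. In the last setting the median over all pairs was itself 0.476, and it was 0.182 with the percentile over all probes.

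As a mean over the 4 probes, the log2 deviation from the 10-array mean was −0.15 on WT 3, −0.14 on LivPGC-1α 1 and −0.08 on WT 5, and it was 0.14 on LivPGC-1α 4 and 0.10 on LivPGC-1α 3. The remaining 5 livers lay between −0.01 and 0.06. The livers low in these strands thus came from both genotypes, and the highest were LivPGC-1α 4 and 3, except without normalization, where WT 2 was highest at 0.19. With cyclic loess the extremes were LivPGC-1α 1 at −0.19 and LivPGC-1α 4 at 0.16.

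**Figure D3:**
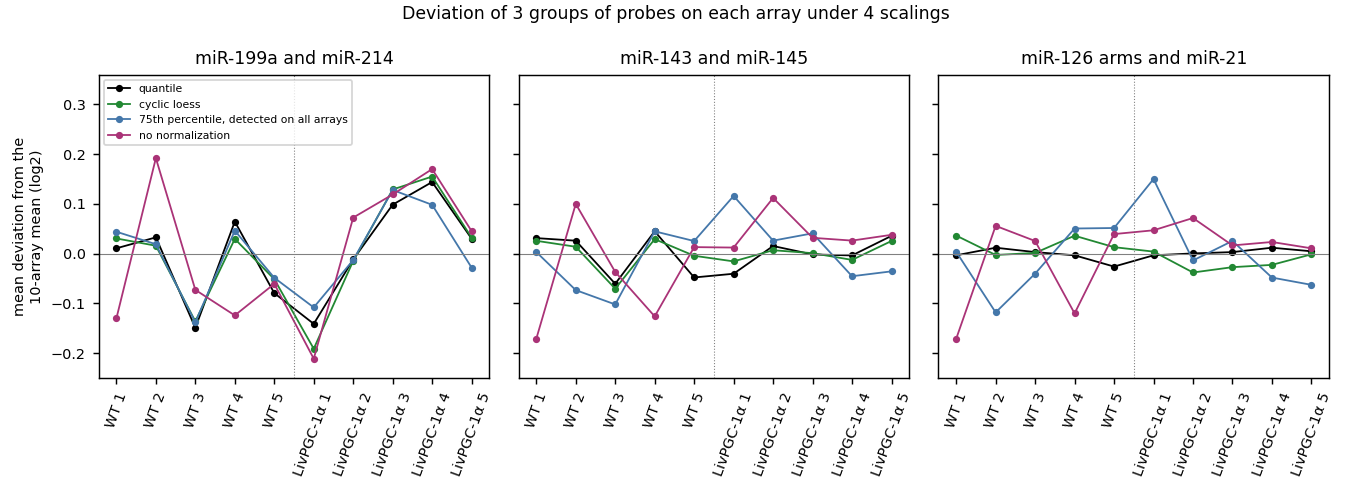
Mean log2 deviation from the 10-array mean (vertical axis) on each array (horizontal axis) for the 4 miR-199a and miR-214 probes, for miR-143 with miR-145, and for the miR-126 arms with miR-21, under 4 scalings. The dotted line parts WT from LivPGC-1α. WT 3 and LivPGC-1α 1 lie below 0 in the first panel under every scaling drawn, while the profiles of the third panel change with the scaling.

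miR-143 and miR-145, neighbours on 1 transcript, had r = 0.71 (rho = 0.72, permutation p = 0.0183 and 0.0240, adjusted p = 0.103 and 0.180), and r = 0.71 again without WT 3 and LivPGC-1α 1. This pair depended on the scaling, with r = 0.19 under cyclic loess and up to 0.92 in other settings. miR-145 also had r = 0.70 with miR-199a-5p (rho = 0.41, adjusted permutation p = 0.103 and 0.362). It was −0.36 without WT 3 and WT 5, so the positive r was not seen among the other livers. miR-143 had r = 0.74 with miR-199a-3p (rho = 0.73, adjusted permutation p = 0.103 and 0.180) and 0.39 without WT 3 and LivPGC-1α 1. With miR-214, miR-145 had r = 0.70 (rho = 0.62, adjusted permutation p = 0.103 and 0.212), 0.30 without WT 3 and WT 5 and 0.14 with cyclic loess.

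Pairs across the cell types were as high on the quantile scale. The endothelial miR-126-5p had r = 0.73 with miR-214 (rho = 0.66, adjusted permutation p = 0.103 and 0.206) and r = 0.72 with the second miR-199a-3p probe (rho = 0.72, adjusted permutation p = 0.103 and 0.180). Without WT 1 and LivPGC-1α 1 these were 0.62 and 0.72, and with cyclic loess −0.19 and −0.18. For miR-126-5p, WT 1 was tied with other arrays in its distance from the median. Leaving it out was therefore an arbitrary choice, and these values are no check on the farthest livers.

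The miR-126 arms come from 1 hairpin, yet their r was 0.50 (rho = 0.62, permutation p = 0.174 and 0.0942, adjusted p = 0.312 and 0.307). With miR-21, miR-126-3p had r = 0.33 and miR-126-5p r = −0.17. On the quantile scale these probes hold few distinct values. Among these 3 probes r was between 0.786 and 0.942 with cyclic loess, and between 0.97 and 0.99 when arrays were scaled to the 75th percentile of the always-detected probes. The relation among the brightest members thus changed with the scaling. So did that of miR-21 with the 6 other mesenchymal probes, whose r ran from −0.44 to −0.09 on the quantile scale, from −0.51 to 0.25 with cyclic loess, from −0.40 to 0.87 with the percentile over always-detected probes, from 0.43 to 0.94 with that over all probes and from 0.21 to 0.94 without normalization.

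**Figure D4:**
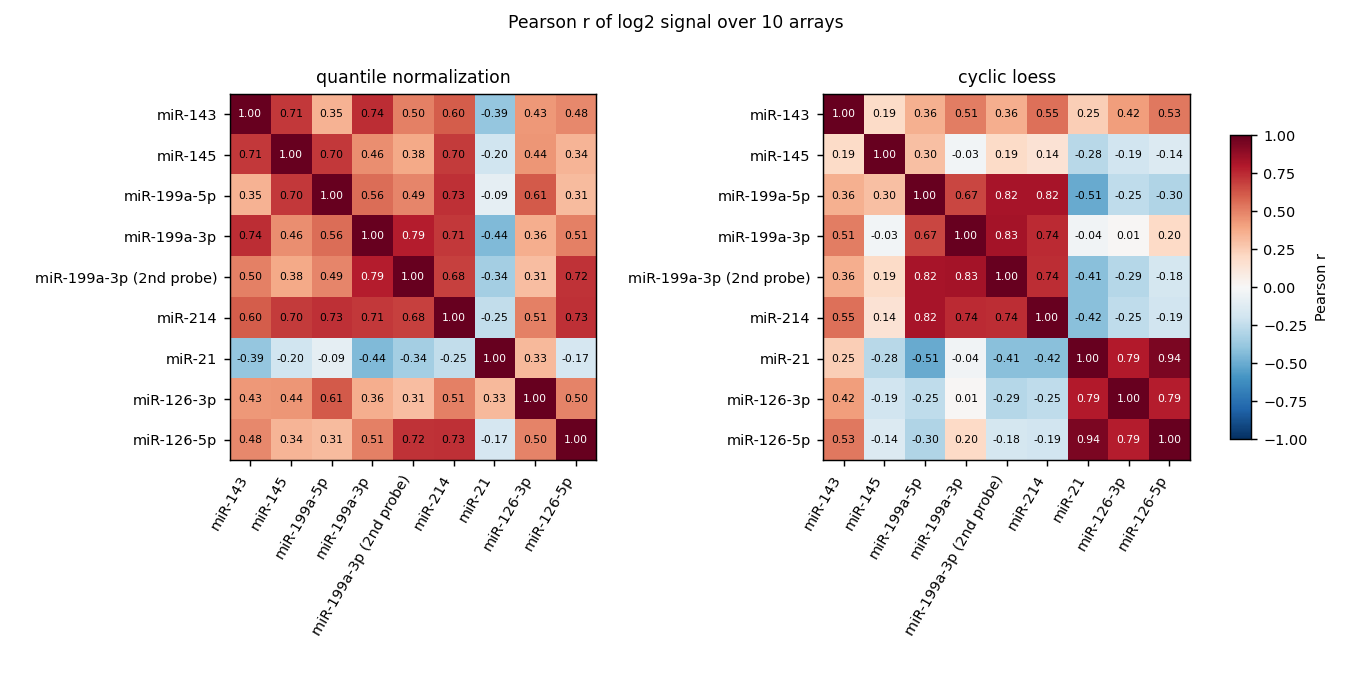
Pearson's r of the log2 signal over 10 arrays for each pair of the 9 probes, with quantile normalization on the left and cyclic loess on the right. The block of miR-199a-5p, the miR-199a-3p probes and miR-214 stays positive in both (0.489 to 0.786 and 0.667 to 0.831), and the block of miR-21 and the miR-126 arms does so only on the right.

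Among the 399 other probes detected on all arrays, those most like each member were found by r of the deviations from the genotype means over 10 arrays. The highest was miR-183* with miR-143, at 0.962, and miR-466g followed at 0.883. miR-466g was also the most like miR-145, at 0.871, with miR-467f at 0.867. miR-338-5p was the most like both miR-214 and miR-199a-3p, at 0.916 and 0.868, with miR-28* at 0.885 for the former and miR-183* at 0.801 for the latter. For miR-199a-5p they were miR-467f at 0.907 and miR-345-3p at 0.806, and for the second miR-199a-3p probe miR-693-5p at 0.794 and miR-130b at 0.787.

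For the brighter members they were miR-27a at 0.885 and miR-93* at 0.884 with miR-126-3p, miR-25 at 0.829 and miR-200c* at 0.771 with miR-126-5p, and miR-465c-5p at 0.897 and miR-342-3p at 0.874 with miR-21. Each is the top of 399 values from 10 arrays. Members were left out of the 399, so the partner arms of miR-126 and miR-199a could not appear. miR-145*, not detected on all arrays, could not appear either. miR-214* and miR-21* could, and neither was among the 2 nearest probes of its member.

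The other strands were dim. miR-214*, the opposite arm of miR-214, read 1344, 1447, 1078, 1792 and 1331 in WT and 1781, 1823, 1909, 1355 and 1365 in LivPGC-1α. WT 4 lay among the 4 highest, and WT 3 was the lowest liver for both arms. The change of miR-214* was 0.24 ± 0.15 (limma, adjusted p = 0.511). miR-21* was detected on all 10 arrays, between 1222 and 2878 with WT 5 the highest, and had a change of 0.11 ± 0.25 (limma, adjusted p = 0.930). miR-145* was detected on 3 arrays and had a change of −0.0026 ± 0.10 (limma, adjusted p = 0.998). The bright paralogue strand miR-199b* lay between 16017 and 18827, with WT 3 again the lowest liver, and had a change of 0.03 ± 0.05 (limma, adjusted p = 0.884). Of these 4 probes 3 lay above 0 and 1 below, and the median change was 0.072.

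**Figure D5:**
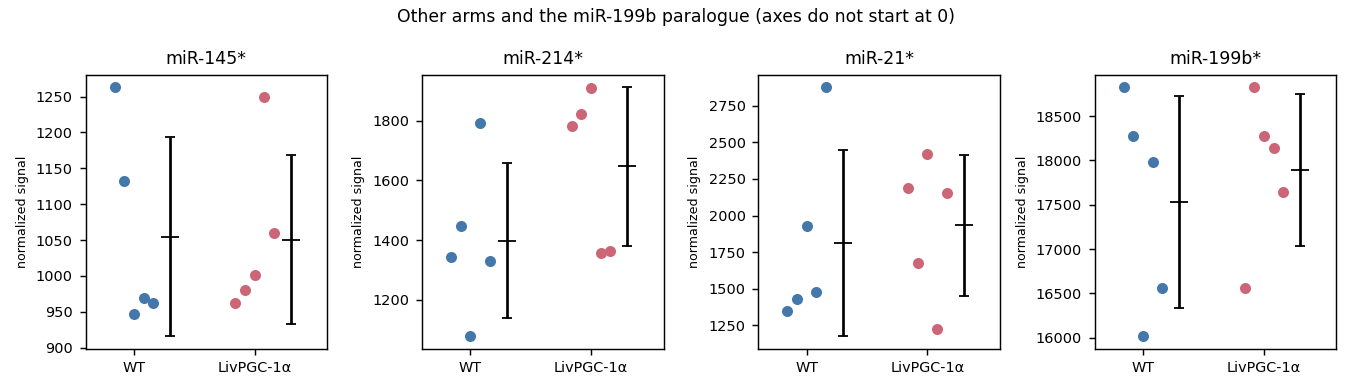
Normalized signal of miR-145*, miR-214*, miR-21* and miR-199b* in 5 WT and 5 LivPGC-1α livers, on axes that do not start at 0. Points are arrays and bars are mean ± SD (n = 5). WT 5 is the highest liver for miR-21* at 2878, and the groups overlap in every panel.

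Further miRNAs of these and other cell types were counted from lists. Over all tested probes 292 changes lay above 0 and 221 below. Of 10 other mesenchymal probes, the log2 change was above 0 for 6 and below for 4, and its median was 0.0021. The brightest, miR-125b-5p, was at 0.0031, and that of smallest p, miR-125b-3p, was at 0.099 (limma, adjusted p = 0.334). Of 8 other endothelial probes, it was above 0 for 5 and below for 3, with a median of 0.0042. The brightest was miR-130a at 0.0069.

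miR-10a, encoded in the Hox clusters and known in endothelium, had the smallest p among these endothelial probes. It read 23311, 24241, 25307, 22043 and 23074 in WT and 25726, 27005, 27005, 28089 and 27725 in LivPGC-1α. All 5 LivPGC-1α livers lay above all 5 WT livers, and the groups did not overlap at 4.87% of all tested probes. The change of 0.20 ± 0.04 did not pass after adjustment (limma, adjusted p = 0.0864).

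The miR-29 family, which represses collagen genes and is known to fall in stellate cells during fibrosis, had 3 probes, 2 above 0 and 1 below, with a median change of 0.0066, the brightest being miR-29c at −0.01. The hepatocyte list had 5 probes (4 above 0) with a median of 0.010, and the leukocyte list 6 (4 above 0) with 0.085. The erythroid list had 4 (2 above 0) with −0.011, and the striated muscle list 5 (1 above 0) with −0.59, in which WT 1 stands apart as described. Here miR-122 was the brightest hepatocyte probe at 0.0084, and miR-802 had the smallest p at −0.35 (limma, adjusted p = 0.327). Of the leukocyte miRNAs, miR-142-3p was the brightest at 0.027, and miR-150 of lymphocytes had the smallest p at 0.40 (limma, adjusted p = 0.0864). The erythroid miR-451 was at 0.0016 and miR-486 at −0.25 (limma, adjusted p = 0.327), and the muscle miR-133a and miR-206 were at −0.96 and −1.22 (limma, adjusted p = 0.662 and 0.631). In these lists and in the other arms 0 probes passed, against 0.390% of all tested probes.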

How the data were processed

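Total liver RNA from 10 samples, taken as 1 mouse each, was profiled on Illumina Universal BeadChips and read with an iScan. The authors deposited mean bead intensities per probe from GenomeStudio (version not given in the sources used here), neither background-subtracted nor scaled, each with a detection p-value, and a second table of quantile-normalized intensities. The p-values given here measure only the spread between these samples. Their number limits the precision.

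Intensities (floor 1) were quantile-normalized over 655 probes and log2-transformed. The 513 probes with detection p of at most 0.01 on at least 1 array were fitted with limma 3.58.1 (lmFit, eBayes, R 4.3.3), adjusted by Benjamini-Hochberg and called at an adjusted p under 0.05. Intervals are 95%. Pairs of members were tested by two-sided permutation with 100000 resamples, adjusted over 36 pairs. The fit was tested on simulated data with independent noise and changes larger than those of the members. That test does not show whether changes of the size seen in the members would be called. The members and lists were chosen with earlier results of these data known. All members are named, with, per member, the 2 most alike other probes and, per list, the brightest probe and that of smallest p. Values given for further miRNAs were chosen after they were seen. Alternatives covered the scaling, background, detection filter, variance model, array weights, chip position, replicate number and left-out arrays. Sequences and host genes came from RefSeq tables (GRCm38.p6).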

Additional observations from a re-analysis of the deposited data

Results flagged for a closer look

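Within WT, miR-126-5p on WT 2 stood apart at a normalized signal of 55004 from the other 4 arrays, all at 54568. Within LivPGC-1α, miR-126-5p on LivPGC-1α 1 stood apart at 54270 from the other 4, all at 55004. In each group the gap to the nearest array was the whole range, since the others were tied. These are 2 of 28 checks for a sample far from its group. The probe shared with miR-199b entered them both as a member and as a paralogue. For values without ties chance gives about 1 in 20, a rate that does not hold for these tied values.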

How the results depend on the processing

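By limma, 0 members were called under every alternative except the 75th percentile over all probes, which called 2 members and 80 probes of all tested, against 2 as reported. The count over all probes was 1 with cyclic loess, without normalization and under robust eBayes with a trended variance, and 0 once chip position entered as a linear term and without WT 1 and WT 3, or WT 1, WT 3 and WT 5 (both chosen after seeing the data). It was 0 to 3 leaving out each array in turn. With the replicate number as a replicate block, 0 members and 0 probes of all were called, and miR-214 had an adjusted p of 0.489. The deviations of same-numbered samples had r between −0.367 and 0.326. They were not compared with those of differently numbered samples, so whether the numbers pair samples was not tested.

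Some member changes, none of them called, changed sign. miR-143 was 0.16, 0.024 and 0.072 when scaled to the 75th percentile of all or of detected probes and with no normalization, and miR-199a-3p 0.10 and 0.016 with the first and last of these. With cyclic loess miR-126-3p was −0.020, miR-126-5p −0.035 and miR-21 −0.046. The second miR-199a-3p probe was −0.013 with array weights and −0.062 with chip position, where miR-126-5p was −0.0015 and miR-214 −0.031. With chip position, which cannot be told apart from genotype, the SEs were 0.16, 0.044 and 0.19 in that order. Without WT 1, WT 3 and WT 5, miR-126-3p was −0.0077, miR-145 −0.0025, miR-199a-5p −0.0055 and miR-214 −0.012. These were the lowest WT livers for miR-214, so its change fell by construction. Leaving out each array in turn gave −0.035 to 0.0030 for miR-143, −0.062 to 0.0098 for miR-199a-3p, −0.011 to 0.088 for its second probe and −0.0017 to 0.0060 for miR-21. The cause was not tested.

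Of the 36 correlations, 0 passed after adjustment as reported. The number was 22 and 8 with the 75th percentile of all and of detected probes, 5 with cyclic loess and 21 with no normalization. It was 0 to 1 leaving out each array, and 3 on deviations from the genotype means, where the p-values are likely too small. Ranks within an array cannot change under scalings that keep the order of its probes. Signal near the top of the array limits what the brightest members can show.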
